A study of Rattus norvegicus with 54 samples.

Results

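Matricellular genes encode secreted proteins that are placed in the extracellular matrix without serving mainly as its structure. The 10 genes described here (Postn, Tnc, Spp1, Sparc, Thbs1, Thbs2, Thbs4, Ccn1, Ccn2 and Comp) were found by their symbols in the count tables, where all 10 were among the 40319 genes listed. The series measured poly(A) RNA in 54 libraries of left ventricular tissue from female athymic nude rats of the strain F344/NJcl-rnu/rnu, which lack T cells of thymic origin, 8 weeks old when obtained. The animals had a sham operation, or a myocardial infarction (MI) made by permanent ligation of the left anterior descending coronary artery (LAD), or that ligation followed by a cell sheet of human smooth muscle cells (SMCs) derived from bone marrow and endothelial progenitor cells (EPCs) from blood. The nude host and the female sex were shared by all 3 treatments, and tissue was taken 1 week after surgery from the infarct, border and remote zones, with 6 libraries per treatment and zone. In the labels the replicate number is named a technical one, whereas the study's methods speak of 6 hearts per treatment. The study's results give a range of animals per group that ends at 6, without saying which group had fewer. If the 6 libraries were not from separate hearts, the p-values below would measure technical spread alone.

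Matricellular proteins are scarce in the resting adult heart and appear when tissue is injured, where they bind integrins, other surface receptors, growth factors and proteases and so alter how cells attach, move and deposit matrix. In a healing infarct they come mainly from activated fibroblasts and macrophages. Periostin and SPARC act on collagen assembly, tenascin-C and osteopontin act on adhesion and inflammation, thrombospondins bind matrix and, for some members, activate latent transforming growth factor beta (TGF-beta), and the CCN proteins Ccn1 and Ccn2 are immediate targets of the YAP and TEAD transcription factors.

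Promoter sequence is shown for genes that the text below treats together, because Ccn1 and Ccn2 are textbook targets of TEAD factors. RefSeq's table for the GRCr8 rat assembly held promoters of 9 of the 10 genes, Thbs2 being the exception. The 250 bases before the annotated start were searched on both strands for GGAATG, the core letters that TEAD factors bind, for TGANTCA, the AP-1 site, for the CArG box of serum response factor and for TATAAA. The GGAATG letters or their complement were in 5 of the 9 windows (Sparc, Thbs1, Thbs4, Ccn1 and Ccn2), against 12.1% of 33469 rat promoters of the same length. Ccn2 held 3 matches, which began 166, 101 and 92 bases before the start, and the other 4 genes held 1 each. None of the 9 windows held an AP-1 site or a CArG box, which were in 6.34% and 1.5% of all promoters. TATAAA was in 5 of the 9 windows and in 12.9% of all promoters, and no match of one motif overlapped a match of another. A match describes letters and is not a measured binding site. The sequences of Ccn2 (chr1:22624615-22624864, minus strand), Ccn1 (chr2:237225690-237225939, minus strand), Thbs1 (chr3:125510000-125510249, plus strand) and, as a gene without the TEAD letters, Postn (chr2:140677811-140678060, plus strand) run 5′ to 3′ with GGAATG or its complement in capitals.
Ccn2: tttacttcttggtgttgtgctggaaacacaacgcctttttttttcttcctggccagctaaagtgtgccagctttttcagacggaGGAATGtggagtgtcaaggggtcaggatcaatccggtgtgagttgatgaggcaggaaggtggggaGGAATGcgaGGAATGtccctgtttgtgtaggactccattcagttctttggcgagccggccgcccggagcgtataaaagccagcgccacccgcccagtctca
Ccn1: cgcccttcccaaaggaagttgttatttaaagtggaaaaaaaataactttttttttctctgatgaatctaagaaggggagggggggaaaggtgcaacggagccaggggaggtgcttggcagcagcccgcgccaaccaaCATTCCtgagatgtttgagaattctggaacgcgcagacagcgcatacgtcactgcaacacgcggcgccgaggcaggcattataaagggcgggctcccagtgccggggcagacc
Thbs1: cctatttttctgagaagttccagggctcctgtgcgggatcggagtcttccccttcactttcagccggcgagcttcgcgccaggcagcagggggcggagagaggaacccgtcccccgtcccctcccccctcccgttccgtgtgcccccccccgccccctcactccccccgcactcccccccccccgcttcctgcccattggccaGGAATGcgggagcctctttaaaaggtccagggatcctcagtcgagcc
Postn: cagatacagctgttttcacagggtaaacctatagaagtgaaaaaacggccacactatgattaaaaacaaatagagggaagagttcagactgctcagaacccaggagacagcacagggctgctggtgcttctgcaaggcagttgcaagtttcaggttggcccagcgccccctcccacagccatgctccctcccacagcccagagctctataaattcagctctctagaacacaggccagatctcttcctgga

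Counts on genes were between 12699204 and 23397754 per library. A gene's level is stated in CPM, its count divided by the library's total and put on a scale shared by all libraries with TMM factors (a trimmed mean). Because no gene lengths were used, levels were not compared between genes. Cardiomyocyte markers (8 genes, Myh6 and Tnnt2 among them) summed to a median of 66820 CPM in sham infarct-zone tissue as is usual of heart muscle. Some animals stood apart before any comparison. Sham replicate 5 had, in all 3 zones, a summed cardiomyocyte level of 21040 to 28150 CPM against at least 63980 in the other shams, and a macrophage sum of 1542 to 2154 against at most 460.1. Cell sheet replicate 1 had 20060 CPM of cardiomyocyte markers and 40150 CPM of fibroblast markers in the remote zone, where the other 5 animals lay between 43040 and 68540 and between 5516 and 12780. MI replicate 1 had more cardiomyocyte signal in the infarct zone (40930 CPM) than the other MI animals (2680 to 23350). Results that rest on sham replicate 5 or cell sheet replicate 1 are given with and without them. The share of a table's total on summary lines that name no gene also followed the groups, at 28.2% to 42.8% in sham, 17.7% to 30.9% in MI and 17.0% to 27.5% in treated infarct-zone libraries, and its part in the comparisons with sham was not tested.

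**Figure D1:**
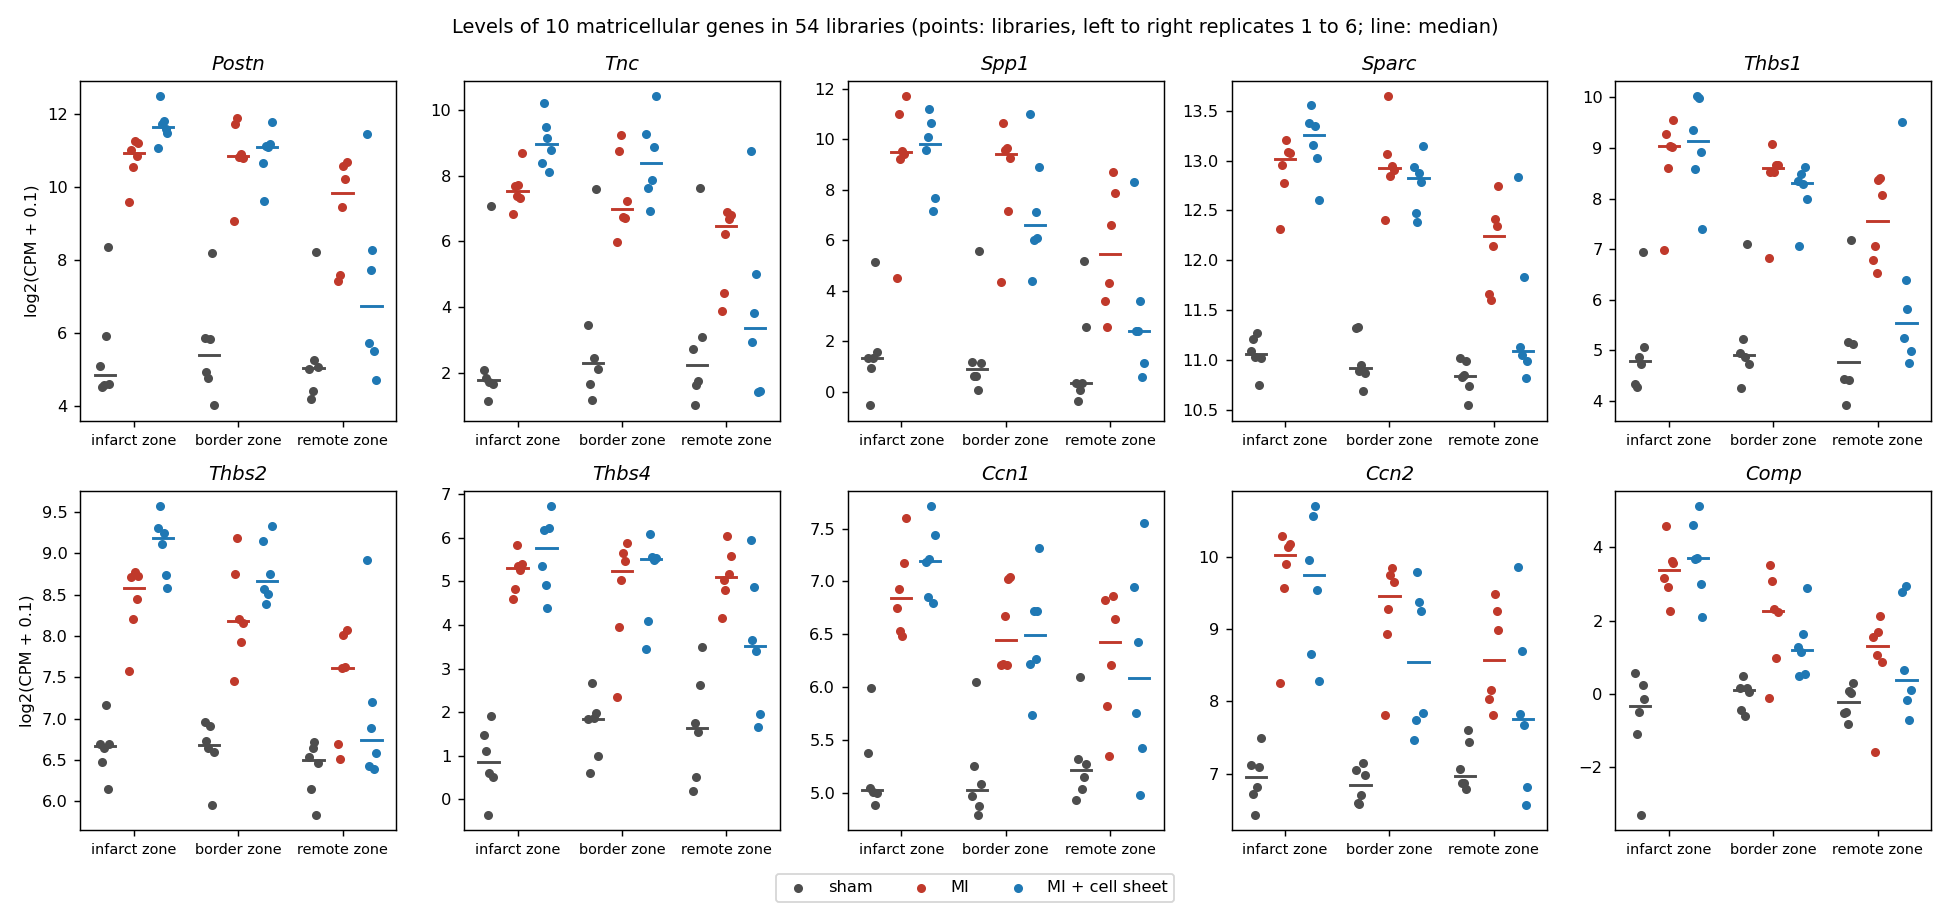
Levels of the 10 genes by zone and treatment, as log2(CPM + 0.1) on separate vertical scales. Each point is a library, in the order of replicates 1 to 6, and each line is a group median. In the infarct zone all MI and cell sheet libraries exceeded all shams for 8 and 10 genes, and 1 cell sheet library sat high in the remote zone for most genes. The share of all genes so separated was not counted.

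In the infarct zone of untreated MI hearts, all 10 genes were higher than in sham (edgeR quasi-likelihood test, Benjamini-Hochberg adjusted p under 0.05), while 22.7% of the 15758 genes tested were called higher. Their median log2 fold change was 3.29, against -0.02 over all genes tested. The groups did not overlap for 8 of the 10 genes. The share of all genes whose groups did not overlap was not counted, here or in the other comparisons. All 10 passed the filter on low counts, which asked for about 0.555 CPM in at least 6 libraries. Comp reached that level in only 3 of the 6 sham libraries and Spp1 in 5, so that their place in the test depended on the infarcted hearts. In bulk tissue, more cells that make a protein and more RNA per cell cannot be told apart. Cell type markers moved with this contrast, in which 27.2% of all genes were called lower. Among the marker genes, 8 of 8 of cardiomyocytes were called lower (median log2 change -1.93), and 8 of 8 of myofibroblasts (2.87), 7 of 10 of macrophages (1.55) and 4 of 5 of neutrophils (2.11) were higher. Of smooth muscle and mural cells 5 of 7 were higher and 1 lower (1.5), and of fibroblasts 5 of 8 were higher and 1 lower (1.22). The cardiomyocyte sum was 22990, 66820 and 76380 CPM (lowest, median, highest) in sham and 2680, 11000 and 40930 CPM in MI. The myofibroblast sum was 93.5, 144 and 155 CPM in sham and 398, 1453 and 2095 CPM in MI. The part of these cells in the changes of the 10 genes was not tested.

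Spp1 encodes osteopontin, a ligand of integrins and CD44 made in the infarct largely by macrophages. Its sham libraries lay at 0.583, 2.40 and 35.3 CPM (lowest, median, highest) and its MI libraries at 22.3, 711 and 3300 CPM in the infarct zone. All MI libraries but replicate 1 exceeded every sham, and that animal lay below sham replicate 5. The change was 7.31 ± 1.37 on the log2 scale (SE, 158-fold, 95% interval 20.2 to 1238, edgeR adjusted p = 0.00169), the 7th highest of all genes tested. It was 9.26 ± 1.18 (613-fold, edgeR adjusted p = 6.97e-05) without sham replicate 5 and 6.71 without MI replicate 6.

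Postn encodes periostin, a marker of activated fibroblasts that aids collagen crosslinking. It rose from 22.8, 29.1 and 330 CPM in sham to 776, 1962 and 2466 CPM in MI, and the groups were fully separate. The difference was 4.46 ± 0.78 in log2 (22.0-fold, interval 6.81 to 71.0, edgeR adjusted p = 0.00119), and without sham replicate 5 it was 5.80 ± 0.42 (55.6-fold, edgeR adjusted p = 1.05e-05). Sparc, a collagen-binding glycoprotein, was already abundant in sham at 1713, 2135 and 2470 CPM and reached 5095, 8296 and 9473 CPM in MI. No library of one group entered the range of the other, and the fold change was 3.63 (log2 1.86 ± 0.21, edgeR adjusted p = 9.11e-05).

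Tnc encodes tenascin-C, an anti-adhesive protein that is nearly absent from the healthy myocardium. The infarct-zone values were 2.11, 3.35 and 135 CPM in sham and 115, 186 and 419 CPM in MI. The highest sham, replicate 5, was above the lowest MI library, and the other 5 shams stood at or below 4.15 CPM. The log2 change was 3.05 ± 1.08 with all libraries (edgeR adjusted p = 0.0331) and 6.05 ± 0.37 without sham replicate 5 (adjusted p = 7.83e-06). The call was lost when any 1 of sham replicates 1, 2, 3, 4 and 6 or MI replicates 4 and 6 was left out, where log2 values were between 2.74 and 3.05.

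The thrombospondins are calcium-binding matrix proteins, and Thbs1 in addition activates latent TGF-beta. Thbs1 lay at 19.4, 27.8 and 123 CPM in sham and 126, 526 and 755 CPM in MI, without overlap, although by a narrow margin between sham replicate 5 and MI replicate 1. Its log2 change was 3.54 ± 0.56 (edgeR adjusted p = 0.000702), or 4.26 ± 0.41 without that sham. Thbs2, which promotes clearance of matrix metalloproteinases, lay at 70.7, 102 and 143 CPM in sham and 191, 383 and 439 CPM in MI. That change was smaller, at 1.79 ± 0.22 in log2 (3.47-fold, edgeR adjusted p = 0.000133), again with separate groups.

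Thbs4, linked to the stressed heart and to tendon matrix, went from 0.678, 1.73 and 3.67 CPM to 23.9, 39.5 and 57.4 CPM. It was the member with the smallest p of all (log2 4.26 ± 0.37, 19.2-fold, edgeR adjusted p = 3.64e-05). Comp, the cartilage oligomeric matrix protein and a close relative of Thbs4, was between 0 and 1.39 CPM in sham and between 4.69 and 23.8 CPM in MI. These groups were apart as well, and the log2 change of Comp was 4.00 ± 0.62, which rests on at most 19 reads per sham library. The cartilage and tendon markers Tnmd, Scx, Chad, Acan and 4 others summed to a median of 56.0 CPM in sham and 45.2 CPM in MI.

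The CCN genes encode adhesive proteins of fibroblast growth and fibrosis. Ccn2 (connective tissue growth factor) lay at 85.8, 124 and 179 CPM in sham and 305, 1049 and 1257 CPM in MI, a log2 change of 2.88 ± 0.32 (7.35-fold, edgeR adjusted p = 8.29e-05). Ccn1 had the smallest of the 10 changes, from a median of 32.4 to 115 CPM (log2 1.70 ± 0.24, 3.25-fold, edgeR adjusted p = 0.000334). Neither gene overlapped between groups, and the highest Ccn1 sham value, 63.4 CPM, was that of replicate 3.

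**Figure D2:**
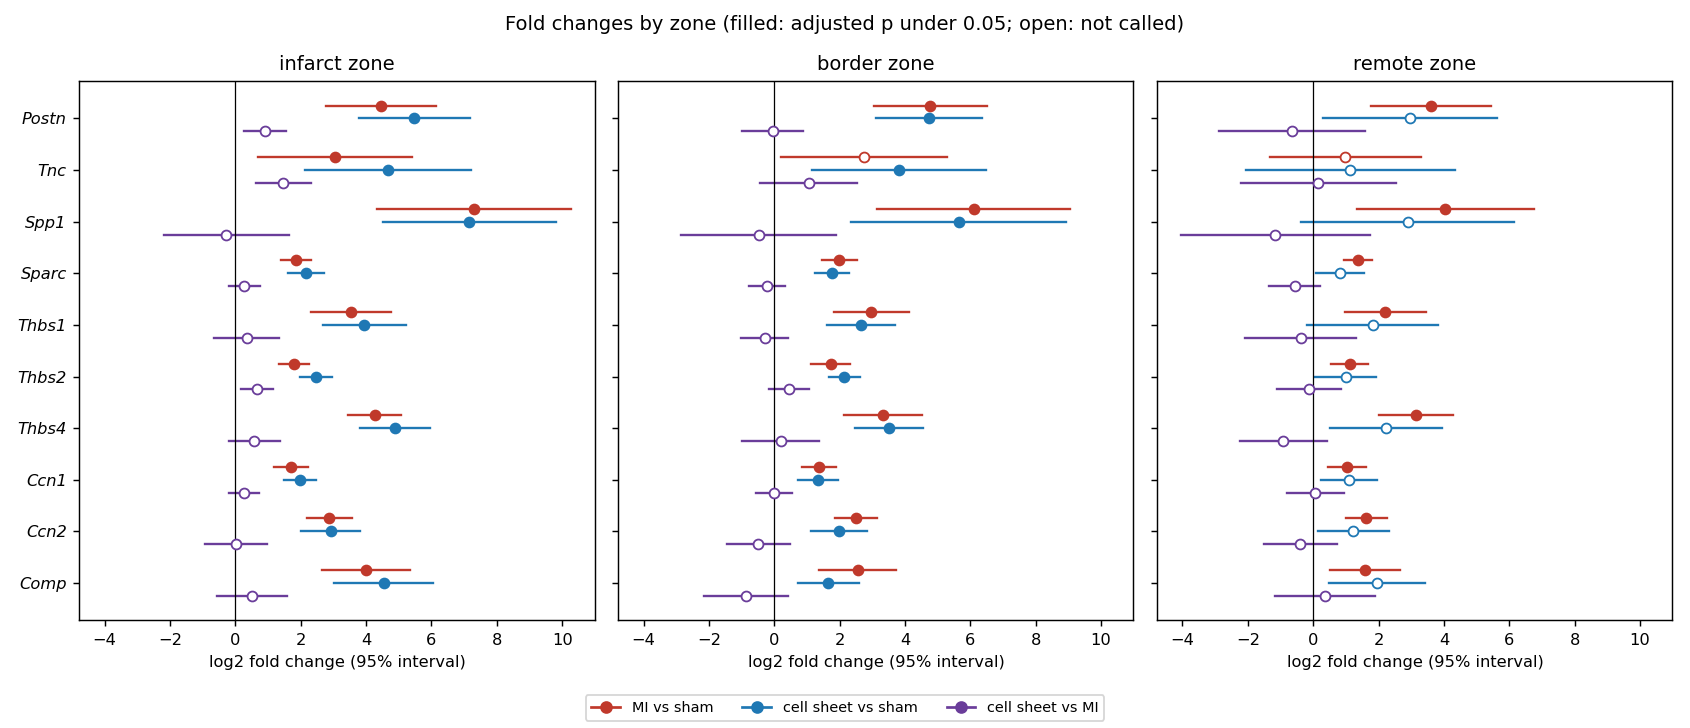
Log2 fold changes of the 10 genes in each zone for the 3 comparisons, with 95% intervals. Filled points passed an adjusted p of 0.05 (edgeR). In the infarct zone the MI changes ran from 1.70 (Ccn1) to 7.31 (Spp1), and no comparison of cell sheet with untreated MI gave a filled point.

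In the border zone 9 of the 10 genes were higher in MI than in sham, against 18.4% of 15641 genes tested, and the median log2 change of the 10 was 2.65. Postn was at 541, 1864 and 3816 CPM in MI and at 16, 43.9 and 294 CPM in sham, with a log2 change of 4.78 ± 0.80 (edgeR adjusted p = 0.00143). Spp1 changed by 6.11 ± 1.36 and Thbs4 by 3.33 ± 0.55 in log2, and in both MI replicate 1 fell within the sham range. Without sham replicate 5 the border changes were 8.67 ± 1.07 for Spp1 (407-fold), 5.87 ± 0.58 for Postn (58.6-fold) and 3.69 ± 0.35 for Thbs1. The remaining calls were Thbs1 (2.97), Comp (2.55), Ccn2 (2.5), Sparc (1.99), Thbs2 (1.72) and Ccn1 (1.37). MI replicate 1 also lay within the sham range for Thbs1 (113 CPM, highest sham 138) and Comp (0.826 CPM, highest sham 1.29). Tnc was at 2.12, 4.78 and 193 CPM in sham and 63.5, 129 and 611 CPM in MI, and did not pass the test (log2 2.74 ± 1.17, edgeR adjusted p = 0.0760). Without sham replicate 5 the Tnc value was 5.58 ± 0.75 (adjusted p = 0.000111). Comp reached the filter's level in 4 of 6 shams. Of the border markers 8 of 8 of cardiomyocytes were lower (23.2% of all genes), and 8 of 8 of myofibroblasts, 8 of 10 of macrophages and 4 of 5 of neutrophils were higher. Fibroblast markers were higher in 6 of 8 cases and lower in 1, and 3 of 7 of smooth muscle and mural cells were higher.

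The remote zone is muscle at a distance from the infarct. Here too 9 of 10 genes were higher in MI, against 11.7% of 15294 genes, with a median log2 change of 1.61. Thbs4 had, of the 10 genes, the remote change closest in size to that of the border zone. It lay at 1.03, 3.02 and 11.1 CPM in sham and 17.9, 34.3 and 65.6 CPM in MI, with no overlap (log2 3.14 ± 0.53, edgeR adjusted p = 0.00182). Sparc (log2 1.37, 2.59-fold) and Ccn2 (1.62, 3.07-fold) were also fully separate between the groups. Postn overlapped, since its MI libraries spread from 172 to 1636 CPM around a median of 951 and sham replicate 5 lay at 296 CPM, yet the difference passed the test (log2 3.61 ± 0.85, edgeR adjusted p = 0.00905).

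Spp1 (log2 4.05 ± 1.26) and Comp (1.59 ± 0.49) passed narrowly in the remote zone, with adjusted p of 0.0319 and 0.0305 by edgeR, and each lost the call when certain single libraries were left out. For Spp1 these were sham replicates 1, 2, 3, 4 and 6 and MI replicates 5 and 6. For Comp they were sham replicates 1 to 4 and MI replicates 1, 4 and 5. The Spp1 change ran from 3.21 without MI replicate 5 to 6.09 ± 1.17 without sham replicate 5. Only 5 of 6 shams for Spp1 and 3 of 6 for Comp reached the filter's level of about 0.631 CPM, so that both entered the test through the MI libraries. Tnc did not pass (0.98 ± 1.07, adjusted p = 0.527), with MI libraries at 14.5 to 118 CPM and sham replicate 5 above them all at 198 CPM. Among the remote markers 7 of 8 of myofibroblasts, 4 of 10 of macrophages and 3 of 3 tested of neutrophils were higher and 4 of 8 of cardiomyocytes lower, where 14.2% of all genes were lower. Fibroblast markers were higher in 6 of 8 cases, and smooth muscle and mural markers were higher in 2 of 7 and lower in 1.

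Sham replicate 5 held the highest or lowest control value for 7 or 8 of the 10 genes in each zone. In the infarct, border and remote zones it exceeded the median of the other 5 shams by 42.1-, 45.8- and 60.4-fold for Tnc, by 14.8-, 33.3- and 31.4-fold for Spp1, by 13.7-, 9.64- and 9.27-fold for Postn and by 4.65-, 4.75- and 6.81-fold for Thbs1. The same animal was the lowest sham in every zone for Sparc (1491 to 1713 CPM) and Thbs2 (57.0 to 70.7 CPM). Ccn1 stayed near the other shams, at 0.868 to 0.916 of their median. The high and low genes thus did not move as 1 block in this animal, in which the fibroblast sum (6024 to 6880 CPM) was below that of all other shams of the same zone and the macrophage sum above it. The skeletal muscle sum was also higher (95.5 to 114 CPM, other shams at most 29.4), and the part of these values in the result was not tested.

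Without sham replicate 5, all 10 genes were higher in MI in each of the 3 zones, and the shares of all genes called higher were then 34.1% (infarct zone), 31.9% (border zone) and 23.7% (remote zone). The remote-zone Tnc change became 4.03 ± 0.58 (edgeR adjusted p = 9.22e-05) that of Postn 4.99 ± 0.61 and that of Thbs1 3.06 ± 0.38 (2.20 with all libraries). Sparc, Thbs2, Ccn1 and Ccn2 moved by at most 0.12 in log2 in any zone, and Tnc moved by up to 3.05.

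**Figure D3:**
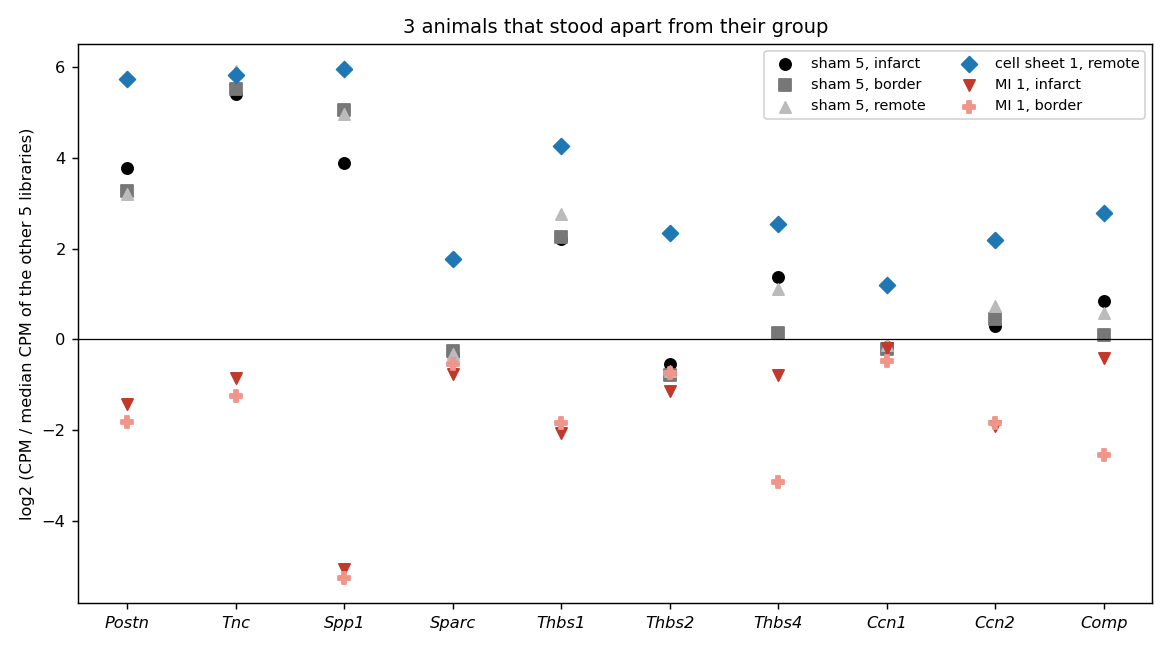
Log2 ratio of 3 animals that stood apart to the median CPM of the other 5 libraries of the same group, for each of the 10 genes. Sham replicate 5 was high for Postn, Tnc, Spp1 and Thbs1 and low for Sparc and Thbs2, cell sheet replicate 1 was above the median for all 10 genes, and MI replicate 1 was below it for all 10.

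The comparison of cell sheet-treated with untreated MI hearts asks whether the sheet altered the healing tissue. None of the 10 genes passed the edgeR test in any zone, where 3, 0 and 0 of them had an unadjusted p under 0.05 (in the order infarct, border, remote) and DESeq2 called 1, 0 and 0. In the infarct zone 0% of 16196 genes passed by edgeR, with 1341 at an unadjusted p under 0.05 and 59 called by DESeq2. In the border zone 18% of 16272 genes passed, and in the remote zone 17.1% of 15374. The median log2 changes of the 10 genes were 0.42, -0.13 and -0.39.

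In the infarct zone the values nearest to a call were those of Tnc, Postn and Thbs2, all on the higher side with the cell sheet. Tnc lay at 275, 507 and 1190 CPM against 115, 186 and 419 CPM in untreated MI, where 4 of 6 treated libraries exceeded every untreated one. Its log2 difference was 1.47 ± 0.39 (95% interval 0.63 to 2.31, unadjusted p = 0.00242 and adjusted p = 0.472 by edgeR), and DESeq2 called it (adjusted p = 0.0411). Postn lay at 2135, 3235 and 5738 CPM against 776, 1962 and 2466 CPM, with a difference of 0.92 ± 0.29 (interval 0.28 to 1.56, adjusted p = 0.481). Thbs2 differed by 0.67 ± 0.22 (interval 0.19 to 1.15, adjusted p = 0.497). Beside these values, the fibroblast sum was 16990, 33020 and 40460 CPM in untreated and 30390, 49190 and 61930 CPM in treated infarcts. The cardiomyocyte sum was 2680, 11000 and 40930 CPM against 738, 2393 and 32830 CPM, and the smooth muscle and mural sum 509, 770 and 891 CPM against 832, 976 and 1256 CPM. Skeletal muscle markers summed to 187 and 334 CPM in treated replicates 2 and 6, and to at most 52.8 CPM in the other infarcts of both groups. No marker gene of these lists was called, and their part in the differences was not tested.

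The other 7 infarct-zone differences were between -0.27 (Spp1, interval -2.18 to 1.64) and 0.58 (Thbs4, interval -0.21 to 1.36). Ccn2 was almost level, at 0.02 with an interval of -0.93 to 0.96, an interval that takes in changes of nearly 2-fold either way. In the border zone Tnc again had the highest value (1.05 ± 0.68, interval -0.43 to 2.53), and Comp the lowest (-0.87 ± 0.59, interval -2.16 to 0.42). Spp1 was at 20.6, 103 and 2036 CPM with the sheet and 20.1, 680 and 1602 CPM without it, and this wide spread within each group left an interval of -2.85 to 1.90. The Spp1 difference moved from -0.48 to -2.09 without cell sheet replicate 1 and did not pass in either case. The border library of that animal, the highest for Spp1, held 129 CPM of cardiomyocyte markers. The other treated border libraries held 8140 to 25170 CPM, and the part of this in the Spp1 values was not tested. The smooth muscle and mural sum lay at 419 to 751 CPM in untreated and 948 to 1048 CPM in treated border libraries, with 3 of 7 genes called higher. The adipocyte sum was 0.06, 0.901 and 35.6 CPM in untreated and 0.243, 241 and 636 CPM in treated border libraries, with 2 of 4 tested genes called higher. Of the other markers 1 of 6 of endothelial cells was called higher and 1 of 10 of macrophages lower. Over all genes 8.47% were called higher and 9.48% lower, and the part of these markers was not tested. The narrowest border intervals were those of Sparc (-0.76 to 0.34) and Ccn1 (-0.57 to 0.54).

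The remote zone gave another picture once its libraries were looked at one by one. Cell sheet replicate 1 was the highest of its group for 8 of the 10 genes. Postn was at 2785 CPM in that library and between 26.2 and 310 CPM in the other 5, Tnc at 431 against 2.53 to 31.9 CPM, Spp1 at 319 against 1.37 to 11.8 CPM and Thbs1 at 728 against 26.8 to 83.7 CPM. Over the untreated MI libraries the ranges were 172 to 1636, 14.5 to 118, 5.79 to 419 and 92.7 to 339 CPM. For Thbs1 the other 5 treated libraries therefore all lay below every untreated MI library, and for Tnc, Spp1, Sparc and Thbs4 4 of them did.

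With all 12 libraries the remote differences were -0.65 ± 1.03 for Postn, 0.16 ± 1.10 for Tnc, -1.16 ± 1.34 for Spp1 and -0.39 ± 0.79 for Thbs1. Without cell sheet replicate 1, 8 of the 10 genes were lower in treated hearts, against 20.8% of 15502 genes called lower. Spp1 fell by 4.66 in log2 (SE 1.07, edgeR adjusted p = 0.00403), Postn by 2.82 (0.75, adjusted p = 0.00937), Tnc by 2.67 (0.69, 0.00783) and Thbs1 by 2.18 (0.40, 0.00110). Smaller falls were those of Thbs4 (1.70), Ccn2 (1.06), Sparc (1.01) and Thbs2 (0.82). Ccn1 (-0.07) and Comp (-0.06) did not pass. The library was left out after its values were seen, and the labels give no ground to drop it.

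**Figure D4:**
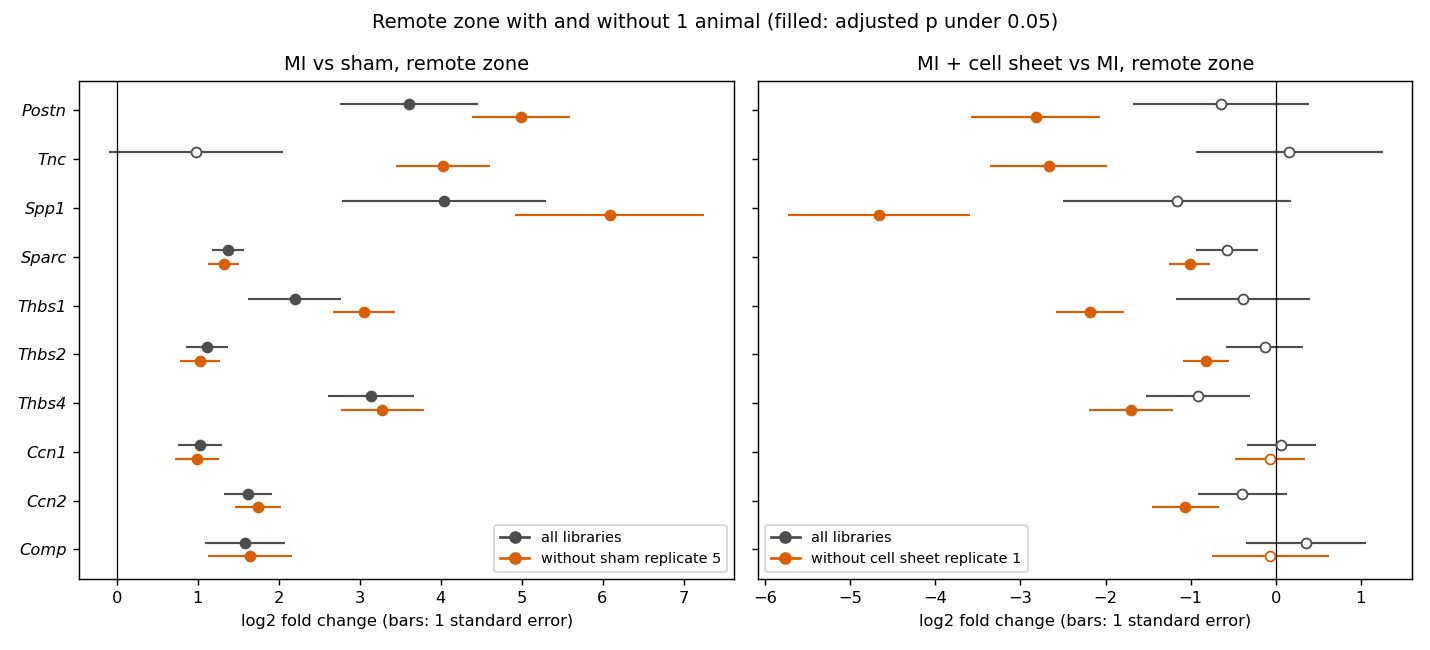
Remote-zone log2 fold changes with all libraries and without 1 animal, with bars of 1 standard error and filled points at an edgeR adjusted p under 0.05. Leaving out sham replicate 5 moved Tnc from 0.98 to 4.03 in MI against sham, and leaving out cell sheet replicate 1 moved Tnc from 0.16 to -2.67 and Spp1 from -1.16 to -4.66 in cell sheet against MI.

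Cell type markers were set beside this contrast with all 12 libraries. In the remote zone the fibroblast sum was 8577, 16820 and 25300 CPM in untreated MI and 5516, 7269 and 40150 CPM in treated hearts, the highest being replicate 1. The macrophage sum was 532.6, 921 and 1563 CPM against 283.8, 311.5 and 1894 CPM, and the cardiomyocyte sum 28260, 37920 and 45120 CPM against 20060, 55150 and 68540 CPM. These sums overlapped between the groups. Of their genes 1 of 8 of fibroblasts and 1 of 10 of macrophages were called lower (6.79% of all genes), and 1 of 8 of cardiomyocytes higher. Of neutrophil markers 2 of 4 tested were called lower. The smooth muscle and mural sum did not overlap, at 522 to 668 CPM in untreated and 741 to 1013 CPM in treated hearts, with 3 of 7 genes called higher (10.3% of all genes). The share of reads on no gene was 29.2% to 40.3% and 23.4% to 31.9%. Their part in the differences of the 10 genes was not tested.

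Treated hearts were also set against sham. In the infarct zone all 10 genes were called higher than in sham, against 28.6% of 15687 genes called higher. Their log2 changes ran from 1.98 (Ccn1) to 7.16 (Spp1) with a median of 4.24, and the groups overlapped for none of the 10. The share of all genes without overlap was not counted. Comp had at most 19 reads per sham library in the infarct zone. At the filter's level for MI against sham, only 3 infarct-zone shams of Comp, 5 of Spp1 and 4 border shams of Comp passed. That level was not worked out for this comparison, so that the place of these genes in the test may depend on the treated hearts. In the border zone all 10 were called as well, against 20.4% of 15960 genes, from 1.33 (Ccn1) to 5.64 (Spp1). Tnc was called there (3.81 ± 1.22, edgeR adjusted p = 0.0247), but not when sham replicate 1 or cell sheet replicate 6 was left out, and Spp1 was at 4.00 there without cell sheet replicate 1. In the remote zone none of the 10 was called by edgeR or DESeq2, although 7 had an unadjusted p under 0.05 by edgeR. At that unadjusted threshold 704 of 15157 genes were higher and 816 lower, and 0.0066% were called higher after adjustment. The 10 estimates, from 0.81 (Sparc) to 2.97 (Postn), all lay above 0. These comparisons share their sham libraries with MI against sham and their treated libraries with cell sheet against MI.

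Without sham replicate 5, all 10 genes were again called in the infarct and border zones (36.4% and 32.9% of all genes called higher). Spp1 was then at 8.98 ± 0.95 (506-fold, 143-fold with all libraries), Tnc at 7.52 ± 0.48 (184- and 25.4-fold), Postn at 6.71 ± 0.43 (105- and 44.6-fold) and Thbs1 at 4.59 ± 0.47 (24.1- and 15.5-fold) in the infarct zone. The border values of these genes became 8.15, 6.60, 5.78 and 3.36 in log2, from 5.64, 3.81, 4.72 and 2.66. Leaving out only sham replicate 5 or only cell sheet replicate 1 put the remote Postn estimate at 4.36 or 0.77 and that of Tnc at 4.20 or -1.71, with no call. In the remote zone without both sham replicate 5 and cell sheet replicate 1, none was called, against 0.251% of all genes called higher. Postn was then at 2.17 ± 0.58 (edgeR unadjusted p = 0.00234, adjusted p = 0.0964), Sparc at 0.31 ± 0.17 and Thbs2 at 0.20 ± 0.15. Among the remaining 10 remote libraries, the treated hearts held a median Postn of 52.7 CPM beside 31.9 CPM in sham.

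Since the 3 libraries of a heart share an animal, the change between zones was taken within hearts. The MI effect was larger in the infarct than in the remote zone for 5 of the 10 genes, against 13.7% of 17068 genes called higher (edgeR, animal as a block). The differences of the effects were 2.33 ± 0.87 for Comp, 2.10 ± 0.65 for Tnc, 1.26 ± 0.26 for Ccn2, 1.16 ± 0.33 for Thbs1 and 0.69 ± 0.22 for Ccn1, all in log2. The adjusted p-values were 0.0462, 0.0200, 0.00124, 0.0132 and 0.0220. Ccn2 was 0.21 to 2.13 higher in the infarct than in the remote zone of the same heart in 6 of 6 MI animals, and between -0.51 and 0.06 in the shams. Spp1 had a larger estimate (2.65 ± 1.12) that did not pass (adjusted p = 0.0781), as its within-heart differences in MI ran from 0.70 to 8.42. It passed without MI replicate 1 (3.19, adjusted p = 0.0404) or MI replicate 5 (3.44, adjusted p = 0.0161), and Thbs2 passed without MI replicate 3 (0.76) or 6 (0.78), by edgeR. Thbs4 was higher in the infarct than in the remote zone in only 3 of 6 MI hearts, with a median of -0.05, and its difference of effects was 1.07 ± 0.63 (adjusted p = 0.208), the shams lying at a median of -0.79.

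The calls of Comp and Ccn1 in this test were weak. Comp lost its call in 8 of 12 fits that left out 1 animal (sham replicates 2 to 6 and MI replicates 2, 3 and 6), Ccn1 in 5 (sham replicates 2, 5 and 6, MI replicates 2 and 6) and Tnc in 1 (sham replicate 6). Ccn2 and Thbs1 held in all 12. No member passed for the border minus the remote zone by edgeR, where 2.16% of genes were called higher, and DESeq2 called 2. By edgeR 5 members had an unadjusted p under 0.05, as did 4471 of 17068 genes, with Ccn2 nearest to a call (0.82 ± 0.25, edgeR adjusted p = 0.0616). Single members passed there without MI replicate 1 (Ccn2, 0.99), 5 (Spp1, 3.10) or 6 (Sparc, 0.77). None passed for the infarct minus the border zone either, where 0% were called higher by edgeR and 1 gene lower, with 1480 genes but no member at an unadjusted p under 0.05.

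The difference between the cell sheet effect in the infarct and in the remote zone did not pass for any of the 10 genes (1.89% of 17583 genes called in either direction). By edgeR 6 of the 10 had an unadjusted p under 0.05, as did 4308 of the 17583 genes, and DESeq2 called 5 of the 10. The estimates of all 10 were above 0, up to 4.12 ± 1.53 for Spp1 (edgeR adjusted p = 0.116), 3.30 ± 1.32 for Tnc and 3.04 ± 1.12 for Postn. None passed for the border minus the remote zone (2.74%) or the infarct minus the border zone (0.125%), by edgeR or DESeq2, and no unadjusted p was below 0.05. When cell sheet replicate 1 was omitted, 7 of the 10 passed for the infarct minus the remote zone (9.74% of genes called higher), namely Spp1 (4.85), Tnc (4.33), Postn (4.05), Thbs4 (2.47), Thbs1 (2.45), Thbs2 (1.44) and Sparc (1.27). For the border minus the remote zone Tnc (3.91), Postn (3.04) and Thbs1 (1.92) passed, against 3.35% of genes.

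Within hearts, Postn was 3.53 to 6.78 higher in the infarct than in the remote zone of 5 treated animals and 0.38 lower in replicate 1. In untreated MI hearts the same difference lay between 0.52 and 3.42, and in shams between -0.48 and 0.67. Tnc had treated values of 4.17 to 7.35 in the 5 animals and -0.37 in replicate 1, and untreated values of 0.62 to 3.27. Thus the untreated and the 5 treated hearts did not overlap for these genes, which is a description, as the animal was set aside after its values were seen.

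**Figure D5:**
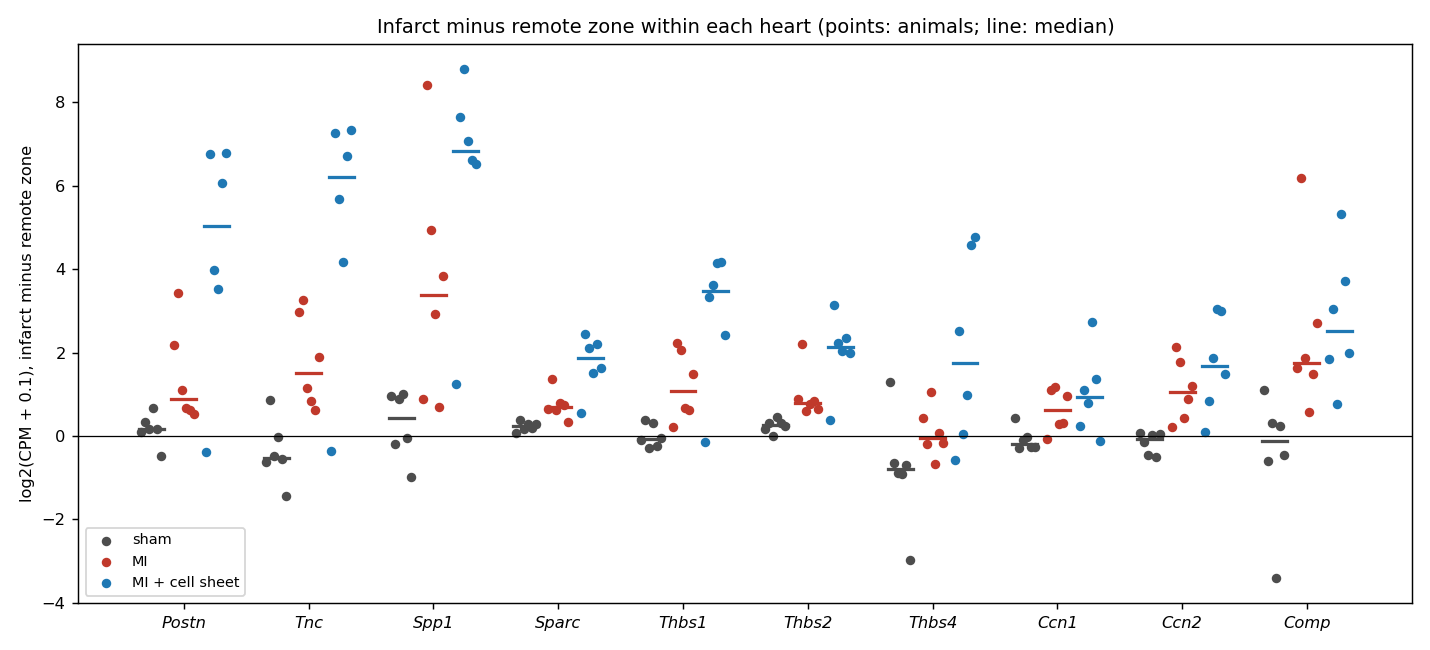
Infarct minus remote zone difference of log2(CPM + 0.1) within each heart for the 10 genes. Points are animals, in the order of replicates 1 to 6, and lines are medians. Postn had medians of 0.16 in sham, 0.89 in MI and 5.03 in treated hearts, with 1 treated animal at -0.38.

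The 10 genes did not share a single profile over the 9 groups of treatment and zone. Likeness was measured as the root mean square (RMS) difference of log2 group means after centring each gene, where 0 is identity. Among the 45 pairs of members the closest were Sparc and Thbs2 (0.23), Sparc and Ccn2 (0.33) and Sparc and Ccn1 (0.33), while Ccn1 and Ccn2 lay 0.41 apart and Postn and Tnc 0.42. Across 13292 genes with a mean of at least 1 log2 CPM, the gene most like Postn was Prss35 (0.23), followed by the matricellular gene Ccn4 (0.34). Comp was nearest to Tagln (0.42) and Tpm2 (0.43), which encode proteins of the contractile cytoskeleton.

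Spp1 was most like Mmp12 (0.41), the macrophage elastase, then Ccn5 (0.53) and Cthrc1 (0.64). Thbs4 was nearest to Epyc (0.44), Col8a1 (0.49) and Lox (0.49), the last being the enzyme that crosslinks collagen. Tnc was nearest to Wnt4 (0.33), Thbs1 to Adamts17 (0.16) and Ccn3 (0.21), Thbs2 to Ssc5d (0.09), Ccn1 to Adamts6 (0.12) and Sparc to Zfp354c (0.08). The distances of genes with a flat profile are small by nature, as the RMS of a member's own centred profile ran from 0.71 (Ccn1) to 3.23 (Spp1).

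Other matricellular genes, 17 of 22 listed passing the filter, were called higher in the MI infarct zone in 12 cases and lower in 1, with a median log2 change of 1.58. The largest were Tnn (8.0 ± 0.84), which encodes tenascin-N, Ccn5 (6.89 ± 0.73) and Ccn4 (5.46 ± 0.89). Of 22 receptors and uptake genes 12 were higher and 4 lower, from Itga8 (3.58), an integrin chain whose dimer binds osteopontin and tenascin-C, and Sdc1 (2.87) to the thrombospondin receptor Cd36 (-1.97). Of 29 genes of the TGF-beta and YAP axis 13 were higher and 2 lower, with Bmp1 (1.76) and Vgll3 (1.71) among the higher ones. In the same comparison 22.7% of all genes were higher and 27.2% lower.

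Between treated and untreated MI in the border zone, 2 of 17 other matricellular genes were higher and 1 lower. Ccn5, a CCN protein that lacks the C-terminal domain of its relatives, fell by 1.54 in log2 (SE 0.44, edgeR adjusted p = 0.0310), whereas Spock2 (1.25) and Thbs3 (0.45) rose. Of 22 receptor genes 5 rose, with Lrp1 (0.89), the uptake receptor of thrombospondins and CCN2, Cacna2d1 (0.85), a thrombospondin receptor, and Lrp6 (0.53) the largest. Of 30 TGF-beta and YAP genes 4 rose, among them Mrtfb (1.29), Tgfbr3 (1.04) and Ajuba (0.48). Over all genes 8.47% rose and 9.48% fell in this comparison.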

How the data were processed

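The authors extracted poly(A) RNA, sequenced it, aligned reads with STAR to the rat build mRatBN7.2 and deposited 1 table of raw counts per library. Which counter was used, and with what strand setting, is not given in the sources used here. The 5 summary lines that name no gene (17.0% to 42.8% of a table's total) were left out. Human reads of the sheet were not separated here, and their share of rat gene counts was not measured.

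Each of 9 comparisons used the 12 libraries of 2 groups in the quasi-likelihood F test of edgeR 4.0.16 in R 4.3.3, with TMM factors, the default filter, Benjamini-Hochberg adjustment over all genes tested and a threshold of 0.05. Intervals (95%) used the standard error and the fit's degrees of freedom. Differences between zones were fitted over 36 libraries of 2 treatments with the animal as a block. Log2 levels had an offset of 0.1 CPM. In simulated counts for MI against sham in the infarct zone (15758 genes), 75 of 100 genes changed by 1.5 in log2 and 96 of 100 changed by 3 were called, and 5 of 176 calls were unchanged genes. The simulation changed few genes, up and down alike, and held no animal that stood apart. Its rates therefore need not hold for the real libraries.

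The 10 genes and the lists were chosen with earlier results of these data known, and nothing here counts as independent support for them. Named genes were the 10 members, the 3 largest called changes of each list in 2 comparisons (mean log2 CPM of at least 1) and the 3 genes most like each member, of which the text gives some. A gene that this rule names is not reported here. Alternatives were DESeq2 1.42.0, no TMM, no filter, all 9 groups in a single fit, a replicate block and leaving out each library.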

Additional observations from a re-analysis of the deposited data

Results flagged for a closer look

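In each group of 6 libraries the gap between the highest or lowest library and its neighbour was set against the range of log2 levels by Dixon's test. Of 90 groups (10 genes, 9 groups) 19 held such a library, where chance gives about 1 in 20 groups, and the libraries of an animal and the genes are not independent. Sham replicate 5 gave 10 of the 19. It was the highest for Postn in the infarct (330 CPM, other shams 22.8 to 60.6) and remote zones (296 CPM, 18.2 to 38.1), for Tnc in the infarct (135 CPM), border (193 CPM) and remote zones (198 CPM, other shams in the 3 zones at most 10.9), for Spp1 in the infarct (35.3 CPM) and border zones (48.0 CPM, others at most 2.83), and for Thbs1 in the infarct (123 CPM) and border zones (138 CPM, others at most 37.4). It was the lowest for Thbs2 in the border zone (61.9 CPM, others 97.0 to 125).

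MI replicate 1 was the lowest in the infarct zone for Spp1 (22.3 CPM, others 601 to 3300), Thbs1 (126 CPM, others 388 to 755) and Ccn2 (305 CPM, others 765 to 1257), and in the border zone for Thbs1 (113 CPM, others 367 to 541). Cell sheet replicate 1 was the highest in the remote zone for Thbs1 (728 CPM, others 26.8 to 83.7) and Thbs2 (485 CPM, others 83.8 to 147). Sham replicate 3 was the highest for Ccn1 in the remote (68.3 CPM, others 30.5 to 39.9) and border zones (66.2 CPM, others 27.6 to 38.1). MI replicate 2 was the lowest for Comp in the remote zone (0.228 CPM, others 1.74 to 4.30).

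The MI effect differed between the infarct and the remote zone, by a test of the difference itself (edgeR, animal as a block, adjusted p under 0.05), for Tnc (2.10), Thbs1 (1.16), Ccn1 (0.69), Ccn2 (1.26) and Comp (2.33), each value being the difference of 2 log2 fold changes.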

How the results depend on the processing

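Of 2460 values of single genes under the alternatives, 2371 kept their side of the threshold or had no adjusted p in the alternative fit. Tnc by DESeq2, given below, is a value of the latter kind. A further 44 were called only under the alternative, 44 lost the call and 1 reversed. That 1 was Tnc in cell sheet against MI in the remote zone, at -2.67 without cell sheet replicate 1 (main value 0.16). Among the 2371, 62 changed sign with no call on either side. Counts below are genes called in either direction, and the cause of each move was not tested. Same-numbered animals of different treatments are different rats, and their deviations correlated from -0.81 to 0.67 across group pairs, so that the numbers do not pair the samples. DESeq2 gave Tnc no adjusted p for MI against sham in the infarct zone and called the other 9. With a replicate block the counts were 4193 (main 6517) for MI against sham in the border zone, 1214 (2922) and 2 (2623) for cell sheet against MI in the border and remote zones, and 0 (1) for cell sheet against sham in the remote zone. DESeq2 called 59 genes and 1 of the 10 (Tnc) for cell sheet against MI in the infarct zone (main 0), and 180 for cell sheet against sham in the remote zone (main 1). A single fit of all 9 groups called 6 genes in the former, and in the latter 183 genes and 1 of the 10 (Thbs4). Leaving out both sham replicate 5 and cell sheet replicate 1, an alternative chosen after seeing the data, gave 128 there.

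For differences of the MI effect between zones with no replicate block, 1572 genes (main 4811) and 0 of the 10 (main 5) were called for the infarct minus the remote zone, 0 (770) for the border minus the remote zone and 0 (1) for the infarct minus the border zone. DESeq2 called 8 of the 10 in the first, for which its count over all genes is not given here. It called 1765 genes and 2 of the 10 in the second and 95 genes in the third. Without TMM factors 1 of the 10 was called in the second and 0 genes in the third. For differences of the cell sheet effect with no replicate block the counts were 60 (333), 171 (481) and 81 (22) in the same order. DESeq2 called 1704 genes and 5 of the 10, 1297 genes and 428 genes.

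Leaving out 1 animal gave 2744 to 7177 genes for MI against sham in the remote zone, 1941 to 3083 and 1096 to 6450 for cell sheet against MI in the border and remote zones (0 to 8 of the 10 in the latter), and 0 to 17 for cell sheet against sham in the remote zone. For the MI effect it gave 2 to 6 of the 10 for the infarct minus the remote zone, 1 to 2286 genes and 0 to 1 of the 10 for the border minus the remote zone, and 0 to 34 genes for the infarct minus the border zone. For the cell sheet effect the ranges were 0 to 2346 genes and 0 to 7 of the 10, 12 to 1087 genes and 0 to 3 of the 10, and 0 to 317 genes. Tnc in cell sheet against MI in the remote zone lay between -2.67 and 0.42. Depth limits Comp, whose sham libraries held 0 to 21 reads.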

Other observations

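Small zone differences were present in sham hearts as well. Sparc was higher in the tissue taken as infarct zone than in the remote zone of the same heart in 6 of 6 shams (log2 difference 0.08 to 0.39), as was Thbs2 (0.01 to 0.44). Ccn2 was lower in the border than in the remote zone in 6 of 6 shams, by values that ran from -0.46 to -0.01 with a median of -0.29, whereas 5 of 6 untreated MI hearts had the opposite sign (median 0.64). These are descriptions of 6 hearts noticed in the data, and no test was made of them.

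Thbs4 in shams had a median infarct minus remote difference of -0.79 in log2, with 5 of 6 hearts below 0. In MI hearts the median was -0.05, with 3 of 6 above 0, and the median levels were 39.5 (infarct), 38.2 (border) and 34.3 CPM (remote). In treated hearts the medians were 56.6, 45.5 and 11.5 CPM.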
